A study of Rattus norvegicus with 4 samples.

Results

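The genes described here encode the respiratory chain of mitochondria, complexes I to IV and the ATP synthase (complex V), measured in spleen cells of rats given liposomes or saline. They were chosen by name: array features called Nduf (complex I), Sdha to Sdhd (complex II), Uqcr (complex III), Cox4 to Cox8 (complex IV) or Atp5 (complex V). A feature also had to be marked well above background, the scanner software's sign of a signal clear of its surroundings, on each array of 1 group or more. The names took in 113 features of 30367 other than controls, for 90 genes, and 105 features for 87 genes met the second condition. Cox8b and Cox8c, isoforms known from muscle and testis, and Ndufaf2, a complex I assembly factor, did not meet it. Every one of the 87 genes was well above background on all 4 arrays, out of 12831 genes tested in all.

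The rats were males of the strain WKAH, 8 to 12 weeks old, and carried no allele or transgene that the labels name. One group received an injection of liposomes, vesicles of lipid whose composition and dose are not given in the sources used here, and the control group received saline. Spleens were collected after 24 h, cells bearing MHC class II (antibody OX-6) were removed on magnetic beads, and cells bearing CD11b/c, a myeloid integrin seen by antibody OX-42, were retained. RNA of that fraction was hybridised to 1-colour Agilent arrays, 2 per group, numbered 1 and 2 (written exp1 and exp2 in the sample titles). Nothing in the labels ties the arrays to separate animals, so the p-values cover the spread among these samples alone, and that spread may be technical. The array read out bulk RNA, in which fewer cells of a type and less RNA per cell cannot be told apart.

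Complexes I, III and IV move protons across the inner mitochondrial membrane as electrons pass from NADH and ubiquinol to oxygen, complex II feeds in electrons from succinate, and ATP synthase uses the proton gradient to make ATP. Most subunits are encoded in the nucleus and imported, while a small core of complexes I, III, IV and V is encoded by mitochondrial DNA. The mitochondrially encoded subunits were not analysed here, so the values below describe the nuclear part of the chain alone. In macrophages the balance between oxidative phosphorylation and glycolysis is known to shift with activation state and with the uptake of lipid.

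Respiratory chain genes lay higher on the liposome arrays across all 5 complexes. The median log2 fold change (liposome minus saline) was 0.39 over the 87 genes, a 1.31-fold difference, against -0.04 over all genes tested. Both liposome arrays lay above both saline arrays for 78 of the 87 genes, below them for 2 (Cox7a2l and Uqcrq), and overlapped them for 7. Over all genes tested, 30.4% lay above and 35.1% below in this way. At an adjusted p under 0.05 (limma, Benjamini-Hochberg over all genes tested), 16 of 87 genes were called higher, where 4.87% of all genes were called higher, and 0 were called lower, where 4.11% were. At an unadjusted p under 0.05 the limma fit had 60 of the 87 higher and 1 lower, where 16% of all genes were higher and 16.6% lower; other counts at an unadjusted p are to be read against these shares. The change per gene was small, 1.43-fold to 2.51-fold among the 16 called genes, and the calls were sensitive to single arrays. Cox6a2 alone stayed called without saline array 1 (2.81% of all genes called higher) or without saline array 2 (1.78%). No member was called without liposome array 1 or without liposome array 2 (0% of all genes called higher in both; 20 and 30 members at an unadjusted p under 0.05, where 17% and 18.7% of all genes were, in either direction). All 16 kept a positive log2 fold change in each of these fits. With no filter on dim probes 0 members were called (42 at an unadjusted p under 0.05, where 13.7% of all genes were, in either direction), and with another background correction (normexp, 7.07% of all genes called higher) 36 were, among them all 16.

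**Figure D1:**
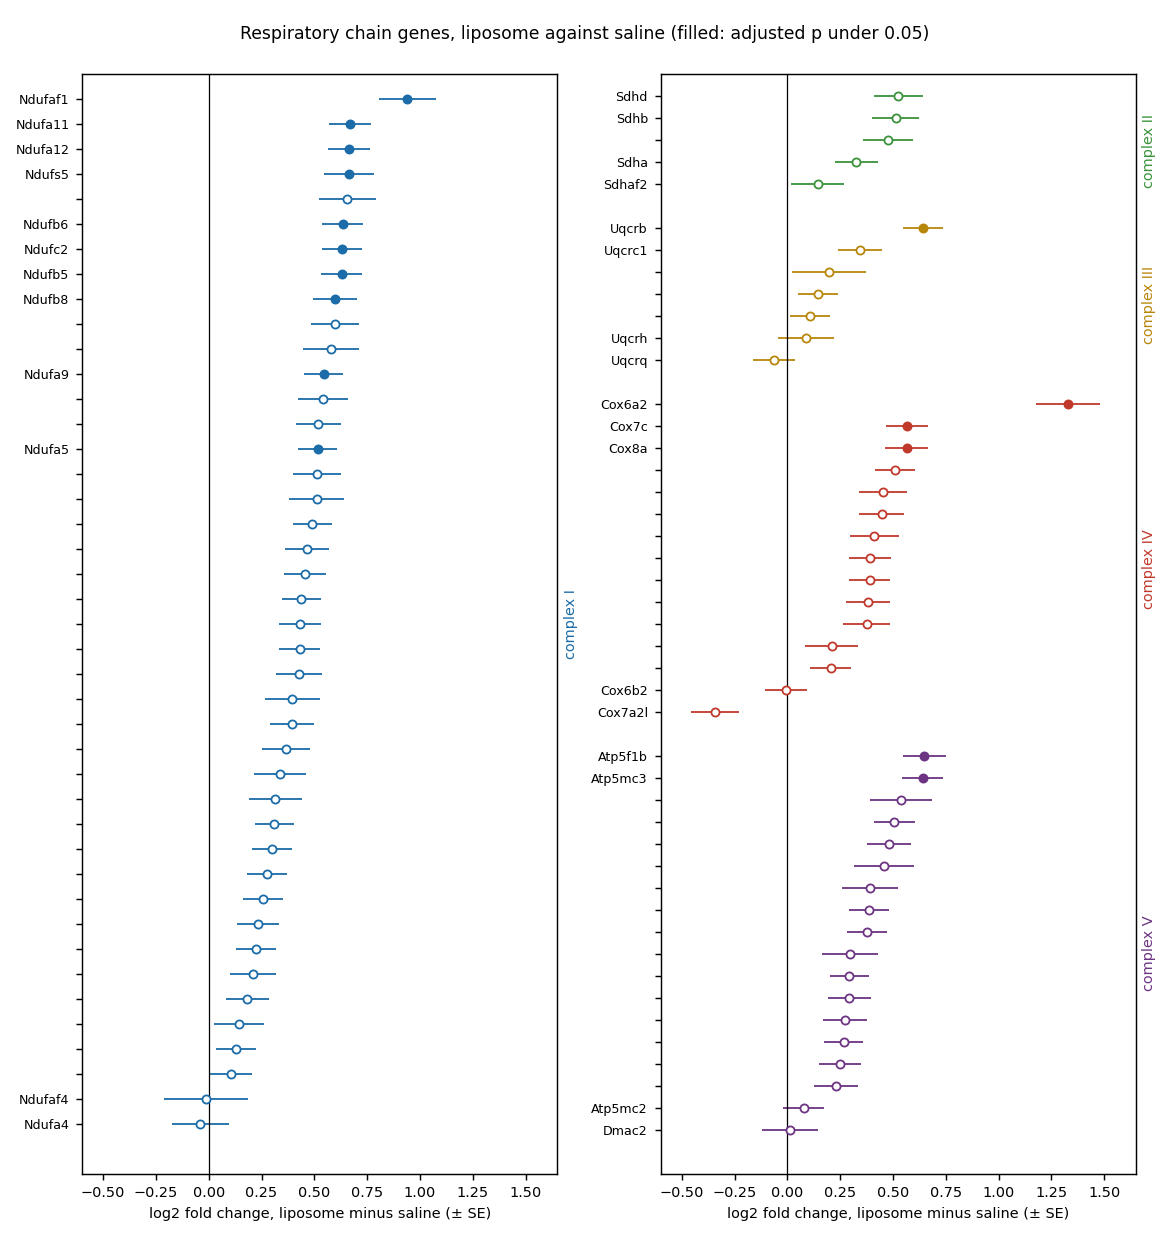
Log2 fold change (liposome minus saline) of each of the 87 genes with its limma standard error (SE), 2 arrays per group, ordered within each complex; names are given for the called genes and for the 2 highest and 2 lowest of each complex. Filled points are the 16 genes with an adjusted p under 0.05, and 82 of the 87 points lie to the right of 0.

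Sequences are shown first for the regions just upstream of 4 called genes, because most members lay on the same side. These 4 were chosen after their sequences were seen, since each holds a motif match, and they do not stand for the others. RefSeq's table of gene starts (build GRCr8) held a window of 300 bases, from 250 before to 50 after the start, for 74 of the 87 genes. Each line gives 200 bases directly before the start, 5′ to 3′ on the strand of the gene, and matches after the start are not shown. Capitals mark matches on either strand to the NRF1 consensus, to CCGGAAG, a motif of ETS factors such as GABPA, or to AAGGTCA, a motif of ESRRA, factors known to bind promoters of nuclear genes for the chain.
Ndufa11 (chr9:1637414-1637613, plus strand): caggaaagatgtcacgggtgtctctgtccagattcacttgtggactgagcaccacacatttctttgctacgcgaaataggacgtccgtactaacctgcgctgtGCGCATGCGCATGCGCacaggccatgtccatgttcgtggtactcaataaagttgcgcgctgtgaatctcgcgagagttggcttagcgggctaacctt
Ndufa12 (chr7:30658116-30658315, plus strand): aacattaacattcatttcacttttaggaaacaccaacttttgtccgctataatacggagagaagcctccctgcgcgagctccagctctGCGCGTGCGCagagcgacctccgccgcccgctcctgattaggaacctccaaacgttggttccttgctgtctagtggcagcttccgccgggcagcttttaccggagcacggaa
Cox8a (chr1:213833624-213833823, minus strand): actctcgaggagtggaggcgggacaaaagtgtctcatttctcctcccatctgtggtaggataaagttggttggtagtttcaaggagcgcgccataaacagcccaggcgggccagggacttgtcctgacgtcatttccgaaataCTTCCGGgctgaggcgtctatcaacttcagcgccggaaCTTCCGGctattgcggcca
Atp5mc3 (chr3:79220665-79220864, minus strand): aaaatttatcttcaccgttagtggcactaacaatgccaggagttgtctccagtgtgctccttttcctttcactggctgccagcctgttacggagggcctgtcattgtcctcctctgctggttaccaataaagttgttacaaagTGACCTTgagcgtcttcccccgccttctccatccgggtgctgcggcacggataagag
Ndufa11 holds a pair of overlapping NRF1 matches, Ndufa12 a single one, Cox8a a pair of separate ETS matches, and Atp5mc3 an ESRRA match on the opposite strand.

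The same letters were counted over the 300 bases of every window, with both strands searched. The NRF1 consensus was found in 15 of 74 members (20.3%), against 10.1% of the 8722 tested genes with a window and 4.25% of all 33469 windows. CCGGAAG was found in 23 members (31.1%), against 18.6% of tested genes and 8.75% of all windows. AAGATGGCG, a motif of YY1, was found in 10 members (13.5%), against 3.83% and 1.73%. AAGGTCA was found in 11 members (14.9%), against 2.99% of tested genes and 4.61% of all windows. These 4 motifs had higher shares among members than in either comparison set, which is a description with no test. Among the 15 called genes with a window, the NRF1 consensus was in 5 (33.3%) and AAGGTCA in 3 (20%). CCGGAAG and AAGATGGCG were in 2 each (13.3%), which for CCGGAAG is below the share of tested genes. TATAAA, the TATA box, was found in 4 members (5.41%), against 7.72% and 14.2%, and CCAAT in 22 (29.7%), against 38.4% and 37.5%. The last pair was no more frequent in members than elsewhere. In all, 9 motifs were searched, and the other 3 are nested in those named: the palindromic form of the NRF1 consensus (5 members), CGCATGCG (8) within it, and TCAAGGTCA (2), which contains the ESRRA motif. Of the 74 members, 44 (59.5%) held at least 1 match to the NRF1, ETS, YY1 or ESRRA motif, against 31.0% of tested genes. Members with and without such a match had near-equal median log2 fold changes, 0.39 over 44 genes and 0.39 over 30.

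Complex I, the NADH dehydrogenase that is the largest complex of the chain, contributed 42 genes and 10 of the 16 calls, with a median log2 fold change of 0.43. Both liposome arrays were above both saline arrays for 40 of the 42. Its matrix arm carries the electron path, and 7 core subunits there hold the flavin and the iron-sulphur clusters. None of the 7 was called by limma, 6 had an unadjusted p under 0.05, and all 7 had groups that did not overlap, with a median of 0.45. Among them Ndufv1, the flavin-binding subunit, differed by 0.18 ± 0.10 (SE; adjusted p = 0.282). The levels below are log2 intensities relative to the 75th percentile of the array.

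Accessory subunits of the matrix arm surround this core, and 3 of 9 were called higher. Ndufa12, which takes the place of the assembly factor Ndufaf2 late in assembly (probe at chr7:31375950-31376009, rn4), read 2.56 and 2.65 with saline and 3.28 and 3.26 with liposomes. Its log2 fold change was 0.66 ± 0.10 (adjusted p = 0.0365), and the gap between the groups was several times the distance between arrays of a group. Ndufa9, which sits where the matrix arm meets the membrane, read 1.32 and 1.32 with saline against 1.86 and 1.87, a log2 fold change of 0.54 ± 0.09 (adjusted p = 0.0449). Its probe spans chr4:163221522-163223453 on rn4, longer than its own 60 bases, so it crosses an intron. Ndufa5 read 3.60 and 3.59 against 4.10 and 4.13, a log2 fold change of 0.52 ± 0.09 (adjusted p = 0.0492), and was the call nearest the threshold. The call of Ndufa5 was lost with quantile normalization, when a gene's probes were averaged and with the array number as a block in the fit. The remaining 6 (Ndufa2, Ndufa6, Ndufa7, Ndufs4, Ndufs6 and Ndufv3) ranged from 0.10 to 0.43, with both liposome arrays on the higher side for each.

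The membrane arm pumps the protons, and its 19 nuclear accessory subunits held 6 calls and the highest median of the classes of complex I with more than 3 genes, 0.49. All 19 had both liposome arrays above both saline arrays. Ndufa11, a membrane subunit linked to contacts with complex III, read 0.89 and 0.94 with saline and 1.63 and 1.54 with liposomes, a log2 fold change of 0.67 ± 0.10 (adjusted p = 0.0367). Ndufs5, on the side of the arm facing the intermembrane space, read 3.46 and 3.61 against 4.27 and 4.12, a difference of 0.66 ± 0.12 (adjusted p = 0.0475). A further probe for Ndufs5 gave nearly the same log2 fold change, 0.64, though the call was lost with quantile normalization. Ndufb6 went from 3.05 and 3.09 to 3.74 and 3.67 (0.63 ± 0.10, adjusted p = 0.0382), and Ndufc2 from 3.65 and 3.67 to 4.31 and 4.27 (0.63 ± 0.09, adjusted p = 0.0373). Ndufb5 read 3.07 and 3.14 with saline and 3.77 and 3.70 with liposomes (0.63 ± 0.10, adjusted p = 0.0401). Ndufb6, Ndufc2 and Ndufb5 are small membrane subunits without redox centres, and for each of them the arrays of a group lay close together and far from the other group. Ndufb8, another subunit of the distal arm, whose protein is widely used as a marker of assembled complex I, read 5.01 and 5.11 against 5.71 and 5.61 (0.60 ± 0.10, adjusted p = 0.0468). The 13 uncalled genes ranged from 0.13 for Ndufb11 to 0.60 for Ndufb2, which missed the threshold with an adjusted p of 0.053.

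Ndufab1, the mitochondrial acyl carrier protein found in both arms, read 1.73 and 1.91 with saline and 2.58 and 2.36 with liposomes, a log2 fold change of 0.66 ± 0.13 (adjusted p = 0.0593, not called). Ndufaf1 is no subunit but an assembly factor that helps to build the membrane arm, and it had the largest change among the Nduf genes. Its probe (chr3:106171591-106171650, rn4) read -2.79 and -3.01 with saline and -1.86 and -2.06 with liposomes, a log2 fold change of 0.94 ± 0.13 or 1.92-fold (adjusted p = 0.035). These are dim levels, and with normexp the log2 fold change of Ndufaf1 was 0.69, close to the 0.68 of Ndufa12. The other assembly factors were not called, with 0.37 for Ndufaf3 (adjusted p = 0.115) and -0.01 for Ndufaf4 (adjusted p = 0.966). For Ndufaf4, 3 probes at different positions gave log2 fold changes from -0.01 to 0.01, and the arrays of the groups overlapped. Ndufa4, first assigned to complex I and now known as a subunit of complex IV, was the lowest of the 42, at 3.26 and 3.46 with saline and 3.42 and 3.22 with liposomes (-0.04 ± 0.14, adjusted p = 0.857). Ndufa10l1 and Ndufb4l1, copies whose sequence may be shared with Ndufa10 and Ndufb4, differed by 0.34 and 0.51 and are uncertain for that reason.

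**Figure D2:**
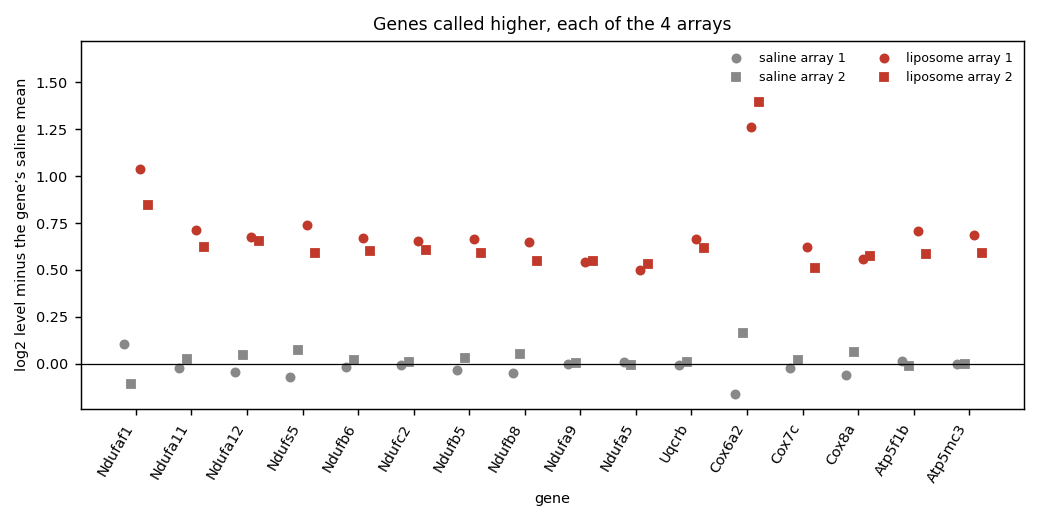
Log2 level on each of the 4 arrays, minus the mean of the gene's saline arrays, for the 16 called genes in the order of their complexes. Circles are arrays numbered 1 and squares arrays numbered 2, saline in grey and liposome in red. Each liposome point lies above both saline points of its gene, and Cox6a2 and Ndufaf1 stand highest.

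Complex II is succinate dehydrogenase, which is also an enzyme of the citrate cycle. It has 4 subunits, all nuclear: Sdha holds the flavin, Sdhb the iron-sulphur clusters, and Sdhc and Sdhd anchor them in the membrane. Sdha read 2.87 and 2.75 with saline and 3.15 and 3.13 with liposomes (0.33 ± 0.10, adjusted p = 0.115). Sdhb read 3.35 and 3.17 against 3.75 and 3.79 (0.51 ± 0.11, adjusted p = 0.0644). Both catalytic subunits thus lay higher on each liposome array than on either saline array. Sdhc read 1.84 and 1.74 against 2.36 and 2.17 (0.48 ± 0.12, adjusted p = 0.0787), and Sdhd 3.18 and 3.05 against 3.72 and 3.56 (0.53 ± 0.12, adjusted p = 0.0655). None of the 4 was called by limma, although each had an unadjusted p under 0.05. Sdhb and Sdhd were called with median scaling, and with normexp Sdhc was called as well. Their median log2 fold change was 0.50. Sdhaf2, the factor that attaches the flavin to Sdha, differed by 0.14 ± 0.12 (adjusted p = 0.464), with overlapping arrays.

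Complex III, the cytochrome bc1 complex, had the lowest median of the 5, 0.15 over 7 genes, and 4 of the 7 had both liposome arrays on the higher side. Uqcrb, a small subunit next to the ubiquinone pocket, was its single call. It read 3.61 and 3.62 with saline and 4.28 and 4.24 with liposomes, a log2 fold change of 0.64 ± 0.09 or 1.56-fold (adjusted p = 0.036; probe at chr7:67958937-67958996, rn4). A dimmer probe of the same gene gave 0.45. The large core proteins Uqcrc1 and Uqcrc2 differed by 0.34 ± 0.10 (adjusted p = 0.112) and 0.11 ± 0.09 (adjusted p = 0.479). Uqcrfs1, the Rieske iron-sulphur protein and the sole catalytic subunit among the 7, read 3.71 and 3.47 against 3.97 and 3.61 (0.20 ± 0.17, adjusted p = 0.476), so the groups overlapped. Uqcrh, the hinge protein, differed by 0.09 ± 0.13 and Uqcrq by -0.06 ± 0.10, neither of them called. Uqcr11 shows how much a value can rest on the probe: 3 probes gave 0.15, 0.40 and 0.43, of which the brightest, used here, gave the lowest. That value is also the median of the 7 genes. Further subunits of complex III, Cyc1 (0.52 ± 0.12) and Uqcr10 (0.49 ± 0.11), were not called and lie outside the 7 by their names in the files. The low median of this complex thus depends on the naming rule and on the choice of probe.

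Complex IV, cytochrome c oxidase, has subunits that exist as isoforms known from particular tissues. Its 15 genes had a median of 0.39, with 3 called and 13 having both liposome arrays above both saline arrays. Cox6a2, the isoform of subunit VIa known from heart and skeletal muscle, had the largest change of all 87 genes. Its probe (chr1:187464580-187464639, rn4) read -2.74 and -2.42 with saline and -1.32 and -1.19 with liposomes, a log2 fold change of 1.33 ± 0.15 or 2.51-fold (adjusted p = 0.0241). These are dim levels, and with normexp the log2 fold change of Cox6a2 was smaller, 0.99. The ubiquitous partner Cox6a1 read 6.24 and 6.38 against 6.80 and 6.71 (0.45 ± 0.11, adjusted p = 0.075). Whether the 2 isoforms differed in their change was not tested. Cox7c, a small subunit common to all tissues, read 1.26 and 1.30 with saline and 1.90 and 1.79 with liposomes (0.57 ± 0.10, adjusted p = 0.0484). The call of Cox7c was lost with the array number as a block in the fit. Cox8a, the common isoform of subunit VIII, read 5.22 and 5.34 against 5.84 and 5.85 (0.57 ± 0.10, adjusted p = 0.049), each value a mean over spots of a probe printed repeatedly. The call of Cox8a was lost with median scaling and when a gene's probes were averaged.

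Subunit IV, which takes part in the control of the oxidase by ATP, is represented by Cox4i1 and by Cox4i2, the isoform known from lung and low oxygen. Cox4i1 read 5.84 and 6.08 with saline and 6.13 and 6.20 with liposomes (0.21 ± 0.13, adjusted p = 0.317). Cox4i2 read 0.72 and 0.75 against 1.23 and 1.27 (0.51 ± 0.09, adjusted p = 0.0508), just short of the threshold. Cox4i2 was called with median scaling, with normexp and when genes had to be above background on all arrays. Cox6b2, known from testis, read 2.64 and 2.63 against 2.68 and 2.57 (-0.01 ± 0.10, adjusted p = 0.97). Cox7a2, the common isoform of subunit VIIa, differed by 0.39 ± 0.10 (adjusted p = 0.0782). Its relative Cox7a2l, a factor that joins complexes III and IV into supercomplexes, had both liposome arrays below both saline arrays, with 5.46 and 5.37 on the saline arrays and 5.16 and 4.99 on the liposome arrays (-0.34 ± 0.11, adjusted p = 0.128). It was the 1 member with an unadjusted p under 0.05 in that direction and was not called. Median scaling raised every log2 fold change by the same amount, and the other 4 members below 0 (Uqcrq, Ndufa4, Ndufaf4 and Cox6b2) lay near enough to 0 to change sign under it.

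**Figure D3:**
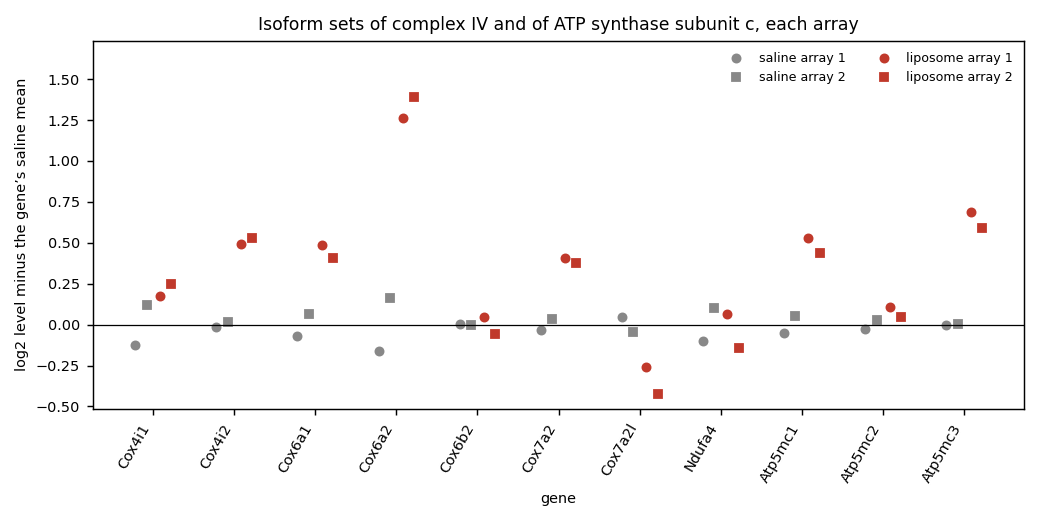
Log2 level on each array minus the mean of the gene's saline arrays, for the isoform sets of complex IV, Ndufa4, Cox7a2l and the 3 genes of ATP synthase subunit c. Symbols are circles for arrays numbered 1 and squares for arrays numbered 2, saline grey and liposome red. Cox6a2 stands highest on both liposome arrays (a log2 fold change of 1.33), while Cox7a2l lies below its saline arrays on both (-0.34).

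ATP synthase contributed 18 genes, 17 of which had both liposome arrays above both saline arrays, with a median of 0.34 and 2 calls. Atp5f1b encodes the catalytic beta subunit of the F1 head. It read 1.45 and 1.42 with saline and 2.14 and 2.02 with liposomes, a log2 fold change of 0.65 ± 0.10 or 1.57-fold (adjusted p = 0.0408; probe at chr7:1378451-1378510, rn4). The alpha subunit gene Atp5f1a differed by 0.46 ± 0.14 (adjusted p = 0.115), and Atp5f1c, Atp5f1d and Atp5f1e, for the central stalk, by 0.38, 0.27 and 0.23. The 4 genes of the peripheral stalk, which holds the head still, ranged from 0.27 for Atp5pb to 0.54 for Atp5pf, none called by limma and 3 with an unadjusted p under 0.05. Atp5me, Atp5mf and Atp5mg, small membrane subunits known from the dimer interface, differed by 0.29, 0.25 and 0.39.

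The proton-driven ring of ATP synthase is made of subunit c, a protein that 3 genes encode with the same mature form and different import signals. Atp5mc1 read 4.07 and 4.18 with saline and 4.66 and 4.56 with liposomes (0.48 ± 0.10, adjusted p = 0.0644). Atp5mc2 read 6.04 and 6.09 against 6.17 and 6.11 (0.08 ± 0.10, adjusted p = 0.609). Atp5mc3 read 3.46 and 3.46 against 4.15 and 4.05 (0.64 ± 0.10, adjusted p = 0.0387), and was the single call among the 3. All 3 were higher on both liposome arrays than on both saline arrays, by different amounts, and the difference between the genes was not tested. Atp5mc3 was read by a pair of overlapping probes, shown here because their letters differ within the overlap, with capitals for the 5 of 48 shared positions that do not match.
Atp5mc3, brighter probe (chr3:56512525-56512584, rn4, minus strand): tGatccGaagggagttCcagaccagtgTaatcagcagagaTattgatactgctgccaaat
Atp5mc3, dimmer probe (no position given): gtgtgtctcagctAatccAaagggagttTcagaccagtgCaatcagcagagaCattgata
The dimmer probe read 1.22 and 1.32 with saline and 2.02 and 1.96 with liposomes, a log2 fold change of 0.72 against 0.64 for the brighter one. Both probes read higher with liposomes, but with these mismatches and no position the value of the dimmer one is uncertain for Atp5mc3. Atp5hl1, a copy that may share sequence with Atp5pd, differed by 0.39 against 0.29 for Atp5pd, so neither can be assigned with certainty.

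Not every gene that the names take in belongs to the chain. Emc8, listed under the older name Cox4nb, is part of an insertion complex of the endoplasmic reticulum and differed by 0.39 ± 0.10 (adjusted p = 0.082). Dmac2l and Dmac2, listed under older Atp5 names, are no subunits of the enzyme and differed by 0.29 and 0.01. Of the 75 genes known as subunits, 15 were called higher and 70 had both liposome arrays above both saline arrays, with a median of 0.41. Of the other 12, 1 was called and 8 lay higher on both liposome arrays, with a median of 0.35.

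Cox6c-ps1 carries a pseudogene's name, and its probe sequences bear on what it can measure. The first line is the probe that was well above background, the second is a probe of the same pseudogene that was not, and capitals in both mark the 34 letters they share. In the probe of Cox6c itself, capitals mark the 6 of 46 overlapping positions that differ from the first line.
Cox6c-ps1, brighter probe (chr19:54398139-54398198, rn4, minus strand): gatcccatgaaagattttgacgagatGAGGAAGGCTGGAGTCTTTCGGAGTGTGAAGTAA
Cox6c-ps1, dimmer probe (chr19:54398113-54398172, rn4, minus strand): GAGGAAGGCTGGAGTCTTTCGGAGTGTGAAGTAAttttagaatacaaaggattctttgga
Cox6c (chr7:71474381-71474440, rn4, minus strand): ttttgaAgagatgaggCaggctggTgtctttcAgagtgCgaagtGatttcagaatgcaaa
The brighter Cox6c-ps1 probe read 0.76 and 0.95 with saline and 1.30 and 1.33 with liposomes, a log2 fold change of 0.45 ± 0.11, close to the 0.38 ± 0.10 of Cox6c. With 40 of 46 letters in common, RNA of Cox6c may bind this probe too, and the value is uncertain for the pseudogene.

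Repeat spots and probes show only part of the technical error, because on each array they share the same RNA and hybridisation. For the 14 member probes printed in 9 or 10 spots, the SD of log2 intensity over spots was 0.02 to 0.15, with a median of 0.05. For the 15 genes with several passing probes, log2 fold changes of one gene's probes lay a median of 0.05 apart and at most 0.33 apart. That widest case was Ndufv3, a small matrix-arm subunit, where a dim probe gave -0.18 and the brightest gave 0.14. Between arrays of one group, the median member was 0.04 higher on saline array 2 than on saline array 1 and 0.06 lower on liposome array 2 than on liposome array 1. Single members went both ways, from -0.28 to 0.47 between the saline arrays and from -0.36 to 0.20 between the liposome arrays, with median sizes of 0.09 and 0.07 regardless of sign. The median difference between the groups, 0.39, was larger than these median sizes but not larger than the widest differences between the saline arrays.

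Most lists of genes around the chain lay higher too, and the regulators were the exception. Both liposome arrays lay above both saline arrays for 85.7% of mitochondrial ribosome genes, 84.6% of citrate cycle genes and 84.6% of further carriers and chain genes. The share was 62.1% for further assembly factors and 29.4% for regulators, against 89.7% of the members and 30.4% of all genes. Calls in these lists, and among the markers below, are to be read against 4.87% of all genes called higher and 4.11% called lower. A list of 13 further genes of electron carriers, transporters and ATP synthase had 2 genes called higher and none lower, with a median of 0.45. Gpd2, the glycerol-3-phosphate dehydrogenase that passes electrons to ubiquinone, read 0.03 and 0.04 with saline and 0.90 and 0.89 with liposomes (0.86 ± 0.09, adjusted p = 0.0215). Cycs, cytochrome c, read 3.13 and 3.02 against 3.74 and 3.64 (0.61 ± 0.11, adjusted p = 0.046). Both carriers lay higher on each liposome array. A set of 11 genes met the naming rule only by their updated names, not by those in the files. It had 0 calls by limma, 4 with an unadjusted p under 0.05 and a median of 0.32. The set mixes subunits (Cox6b1 at 0.33, Uqcr10 at 0.49 and Atp5mk at 0.45) with Atp5if1, assembly factors such as Ndufaf5 and Sdhaf1, and Ndufb4l3, by its name a copy. Of these 11, Atp5if1, an inhibitor of ATP synthase, and Atp5mk, a subunit of it, are also among the 13.

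Of a list of 29 further assembly factors outside the naming rule, 1 was called, 3.45% where 4.87% of all genes were called higher. It was Tmem126b, a complex I assembly factor, at 0.51 and 0.49 with saline and 1.23 and 1.16 with liposomes (0.69 ± 0.10, adjusted p = 0.0335). The median of the 29 was 0.27. Among 17 regulators of mitochondrial genes and factors that express mitochondrial DNA, the median was -0.04, like that of all genes. The 1 call there (5.88% of the list, near the share of all genes) was Ppargc1b, a coactivator of mitochondrial and lipid genes. Ppargc1b read -3.04 and -3.04 with saline and -1.46 and -1.47 with liposomes, a log2 fold change of 1.58 ± 0.09 or 2.98-fold (adjusted p = 0.00831). These are dim levels, as for Cox6a2 and Ndufaf1. Other regulators were not called: Nrf1 differed by -0.25, Gabpa by -0.05, Esrra by 0.19, Yy1 by -0.09 and Tfam, which packages mitochondrial DNA, by -0.03. Of 13 citrate cycle genes limma called 0, with 7 at an unadjusted p under 0.05 and a median of 0.29. Of 70 genes of the mitochondrial ribosome, which translates the mitochondrially encoded subunits, 9 were called higher and 1 lower, with a median of 0.33. Mrpl4 (0.68 ± 0.10), Mrpl52 (0.66 ± 0.10) and Mrpl19 (0.64 ± 0.11) had the largest called rises, and Mrpl1 the single called fall (-0.70 ± 0.12). The 14 calls in these lists became at most 1 when any array was left out, 0 without a filter on dim probes, 9 with quantile normalization and 28 with normexp.

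**Figure D4:**
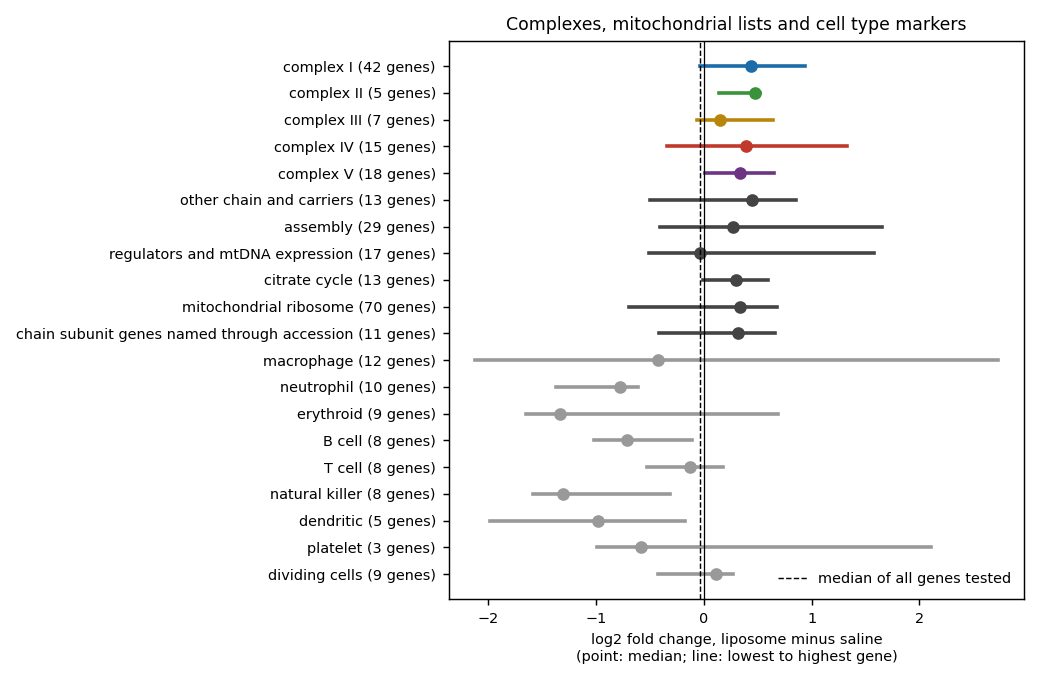
Median (point) and lowest to highest gene (line) of the log2 fold change, liposome minus saline, for the 5 complexes, for lists of genes around the chain and for markers of cell types. The dashed line is the median of all 12831 genes, -0.04, and the medians of the complexes lie between 0.15 and 0.48, to its right. The highest macrophage and assembly genes, Mertk and Bcs1l, were not well above background with saline, so the right ends of those lines are not exact.

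The study title calls the fraction splenic macrophages, and macrophage genes such as Cd68 were measured well above background. Cd68, a lysosomal protein of macrophages, differed by 0.76 ± 0.15 (adjusted p = 0.0538, not called), and the list it belongs to was split in direction. Markers of other cell types were present too, and several moved with the treatment. Of 12 macrophage markers, 5 lay in the higher direction (Cd68, Itgam, Mertk, Mrc1 and Sirpa). At an unadjusted p under 0.05 limma had 4 higher and 5 lower. By adjusted p, 5 of the 12 were called lower (C1qa, C1qb, C1qc, Cd163 and Cd5l) and 1 higher, with a median of -0.42. Their summed linear level (in units of each array's 75th percentile) was 122 to 129 with saline and 110 to 119 with liposomes. Cd5l had the lowest value of the 12, -2.13. The 1 higher call was Mertk, which neither saline array measured well above background and which passed the filter only through the liposome arrays. Its level was at least 6.38-fold higher with liposomes (adjusted p = 0.0159), a bound set per saline array by the higher of its own signal and the lowest signal well above background. Neutrophil markers were called lower for 6 of 10, with a summed level of 240 to 266 against 143 to 155, and erythroid markers for 6 of 9, with 88.4 to 91.3 against 32.7 to 34.0. Of 8 B cell markers limma called 0, with 6 lower at an unadjusted p under 0.05 and a summed level of 54.1 to 57.4 against 30.7 to 39.9. Dendritic cell markers were called lower for 3 of 5 (5.25 to 6.33 against 2.37 to 2.41). Natural killer and T cell markers had no calls by limma, with 0 and 1 of 8 at an unadjusted p under 0.05. Their summed levels followed the array number in both groups (natural killer 22.6 and 68.8 with saline, 9.81 and 28.4 with liposomes). Platelet markers gave 1 call each way among 3, and 9 genes of dividing cells gave none, with 1 at an unadjusted p under 0.05. Without liposome array 1, or without liposome array 2, limma called 0 of all genes, these markers included. The summed level was lowest for platelet markers, 0.64 and 0.70 with saline and 1.43 and 1.34 with liposomes. The part of these shifts in the values of the respiratory chain was not tested.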

How the data were processed

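The authors deposited scanner intensities (linear scale) of 4 arrays, produced by Agilent Feature Extraction 10.7.3.1 per the submitters' processing notes. The processed intensity was corrected for background and spatial trend inside each array and left unscaled across arrays, per the file headers. A single slide and scan held all 4 arrays. Between 61.3% and 66.3% of the 42877 non-control spots passed the scanner's test against background, and 1.14% to 1.36% were marked as outliers. With arrays, precision is limited by how many there are.

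After removal of control and outlier spots, log2 values were averaged per probe, and each array's 75th percentile over the other probes was subtracted. Names were updated through the gene list of RefSeq: 18394 of 30367 probes matched by accession and 3001 by symbol or synonym, 4797 kept the files' name and 4175 had none. The brightest passing probe stood for a gene. Positions of probes come from the files and refer to rn4 (RGSCv3.4); no genome or annotation of that build was used, so exon, intron or UTR is given only where a probe's span exceeds its length.

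Levels of 12831 genes entered limma 3.58.1 (R 4.3.3, lmFit then eBayes; data.table version 1.17.8), with 2.26 prior and 2 residual degrees of freedom and Benjamini-Hochberg adjustment over all of them; values after ± are limma's SE, n = 2 arrays per group. With 2 arrays against 2, exact permutation has 0.333 as its smallest p and was not used. Tested on simulated data of 12831 genes for liposome against saline, the fit found 73.5% of 200 genes changed by 1 and 99.0% of 200 changed by 2 on the log2 scale, and 4.43% of its calls were false. The simulated noise was independent between arrays, and no changes under 1 were simulated. All called members but Cox6a2 changed by less than 1, so these shares may not carry over to them. The members, lists and motifs were chosen with earlier results of these data known. Named were all called members, the 2 highest and 2 lowest of each complex, isoform sets, complex II, and in the lists around the chain at most 3 called genes per direction; Ndufv1, Ndufab1, the uncalled regulators and others given by their values alone were chosen after their values were seen. The individual values of 1 member, which stays in all counts and medians, are not reported here. Alternatives were median scaling, quantile normalization, normexp with an offset of 50, other filters, the mean of a gene's probes, every probe by itself, the array number as a block and leaving out each array.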

Additional observations from a re-analysis of the deposited data

How the results depend on the processing

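The count of 16 called members stayed within 1.5 times in several alternatives, given here with the share of all genes called higher. Median scaling gave 21 members, of which 15 were shared (6.66%), and quantile normalization gave 14 (4.63%). A filter on all arrays gave 20 (5.65%), and averaging the probes of a gene gave 14 (4.64%). The count was 36 with normexp and 0 without a filter on dim probes. Without that filter 21901 genes were tested and none was called, and 0 named members were called there too. When each array was left out in turn it was 0 to 1, likewise 0 to 1 for the named members and 0 to 1 for the pathway genes outside the naming rule. Each lone array was then assumed to vary like the other group. The 14 calls of these pathway genes became 9 with quantile normalization, 28 with normexp and 0 when dim probes were kept.

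Median scaling, which moved the median of all genes from -0.04 to 0.04, gave medians of 0.47 for all members, 0.52 for complex I, 0.56 for complex II, 0.23 for complex III, 0.47 for complex IV and 0.42 for complex V. It called 855 genes higher and 442 lower over all genes tested (65.9% higher), against 625 and 527 (54.3%). Complex III came to 0.20 with probes of a gene averaged. With arrays left out, the median was 0.37 to 0.43 for all members, 0.42 to 0.46 for complex I, 0.38 to 0.53 for complex II, 0.12 to 0.18 for complex III, 0.36 to 0.47 for complex IV and 0.31 to 0.38 for complex V. The cause of these shifts was not tested.

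With the array number as a block, 14 members were called (all among the 16; Cox7c and Ndufa5 were lost), with 6.45% of all genes called higher, and 18 pathway genes, while 827 genes were higher and 987 lower over all genes (45.6% higher). The titles give both groups the same numbers, each after the letters exp, without saying whether a number marks a shared experiment. The main fit does not use these numbers. The deviations of same-numbered arrays from their group means correlated at 0.354 over 12831 genes. One alternative was chosen after seeing the data: a first run left out genes named only by an accession, and repeating this gave 20 called members among 11281 genes (5.69% called higher), the 16 among them.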
